A study of Homo sapiens with 16 samples.

Results

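The kallikrein-related peptidase genes KLK5, KLK6, KLK7, KLK8, KLK9, KLK10, KLK11, KLK12, KLK13 and KLK14 lie side by side on the minus strand of chromosome 19, from KLK5 (GRCh38, 50943303 to 50953093) to KLK14 (51077495 to 51084245). These 10 genes were taken by name from the 58735 genes of the count table. They were chosen by name with their read counts in these same libraries known, so their levels and differences are described here and nothing is concluded from how many of them passed a test. KLK9 had 3 counts in all 16 libraries together and was removed by the filter on low counts, and the other 9 entered the fits across all genes.

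The family encodes secreted serine proteases that are made as inactive precursors and are switched on when a short propeptide is cut off, often by another kallikrein. In the upper epidermis KLK5, KLK7 and KLK14 cleave the adhesion proteins that hold cornified cells together, and the inhibitor encoded by SPINK5 keeps them in check. In breast epithelium several members are secreted into milk ducts, several respond to steroid hormones in cultured breast cancer cells, and KLK10 was described as a gene of normal mammary epithelium that many breast cancer lines have lost.

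Poly(A) RNA of 4 established human breast cancer cell lines was sequenced, with 2 libraries in each of 8 groups. HCC1806 was sampled as a 2D monolayer and as 3D spheroids at day 10 and day 20, and BT474 was sampled in the same 3 ways. CAL148 and ZR-75-30 were sampled as 2D monolayers only. HCC1806 and ZR-75-30 grew in RPMI and BT474 and CAL148 in DMEM, both with serum, so between these pairs the line and the medium cannot be told apart. All cells were otherwise untreated as far as the labels say, each line stands for 1 tumour, and the groups follow the titles, since the treatment field gives 2D culture for all 16 libraries, spheroids included. The labels do not say whether the 2 libraries of a group came from separate cultures, so p-values measure only the spread between these libraries, which may be technical.

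Library totals ran from 29696358 to 72489002 counts, and 3 counts corresponded to between 0.0458 and 0.139 CPM (the depth-scaled count, with TMM factors over all 16 libraries). The summed CPM of 5 epithelial markers (EPCAM, CDH1, KRT8, KRT18, KRT19) lay between 1738 and 8842 in every library. Of markers of other cell types, 6 fibroblast genes summed to between 1.85 and 110.6 CPM per library, 4 endothelial genes to between 0.186 and 8.87 and the leukocyte genes to between 0.0555 and 6.82. PTPRC, the defining leukocyte gene, was at most 0.0556 CPM in any group mean and COL1A2 at most 0.114. COL1A1 had group means of 30.6 CPM in HCC1806 monolayers, 62.0 and 77.1 CPM in its spheroids, and 75.7, 102 and 84.9 CPM in the BT474 groups. In HCC1806 monolayers, day 10 and day 20, COL3A1 had means of 0.0695, 0.592 and 6.28 CPM. In the same order LUM had 1.48, 1.82 and 2.97 CPM and DCN 0.0556, 0.482 and 0.647 CPM. The leukocyte marker CD14 went the other way, with 3.71, 2.05 and 1.29 CPM. Their part in the results was not tested. The 2 HCC1806 monolayer libraries stood apart from each other. The SD of their log2 difference over genes was 1.25, against 0.173 to 0.27 in the other groups of HCC1806 and BT474, and mitochondrial genes took 17.8% of the counts in replicate 1 and 0.768% in replicate 2. The differences against this pair whose sign or size depended most on 1 of its libraries are therefore also given without each, and the comparisons that do not need it were fitted on the other 10 libraries of the 2 lines. The SD was 0.541 between the CAL148 libraries and 0.7 between those of ZR-75-30. Mitochondrial genes took 1.96% of the counts in ZR-75-30 replicate 1 and 20.5% in replicate 2. Both lines entered only the fits on all 16 libraries.

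In BT474 the family was close to silent in the monolayers and was expressed in all 4 spheroid libraries. The 10 genes together summed to 1.79 and 3.12 CPM in the 2 monolayer libraries, to 40.2 and 53.4 CPM at day 10 and to 64.9 and 61.9 CPM at day 20. KLK12 was the highest single member by CPM in each spheroid library. KLK12, which encodes a trypsin-like protease known to activate the KLK11 precursor in vitro, had 21 and 21 counts in the monolayers, 794 and 1813 at day 10 and 1194 and 1190 at day 20. Scaled for depth these were 0.514 and 0.500 CPM in the monolayers, 19.5 and 27.7 CPM at day 10 and 32.3 and 31.4 CPM at day 20. All 4 spheroid libraries were above both monolayers, and the groups did not overlap. The log2 fold change against monolayer was 5.48 ± 0.27 (SE) at day 10 and 5.98 ± 0.28 at day 20. In bulk RNA, more cells that express the gene and more RNA per cell cannot be told apart. The mitochondrial share of counts was also higher in these spheroids, at 3.89% to 6.3% against 2.31% and 2.43% in the monolayers, and its part in the result was not tested.

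**Figure D1:**
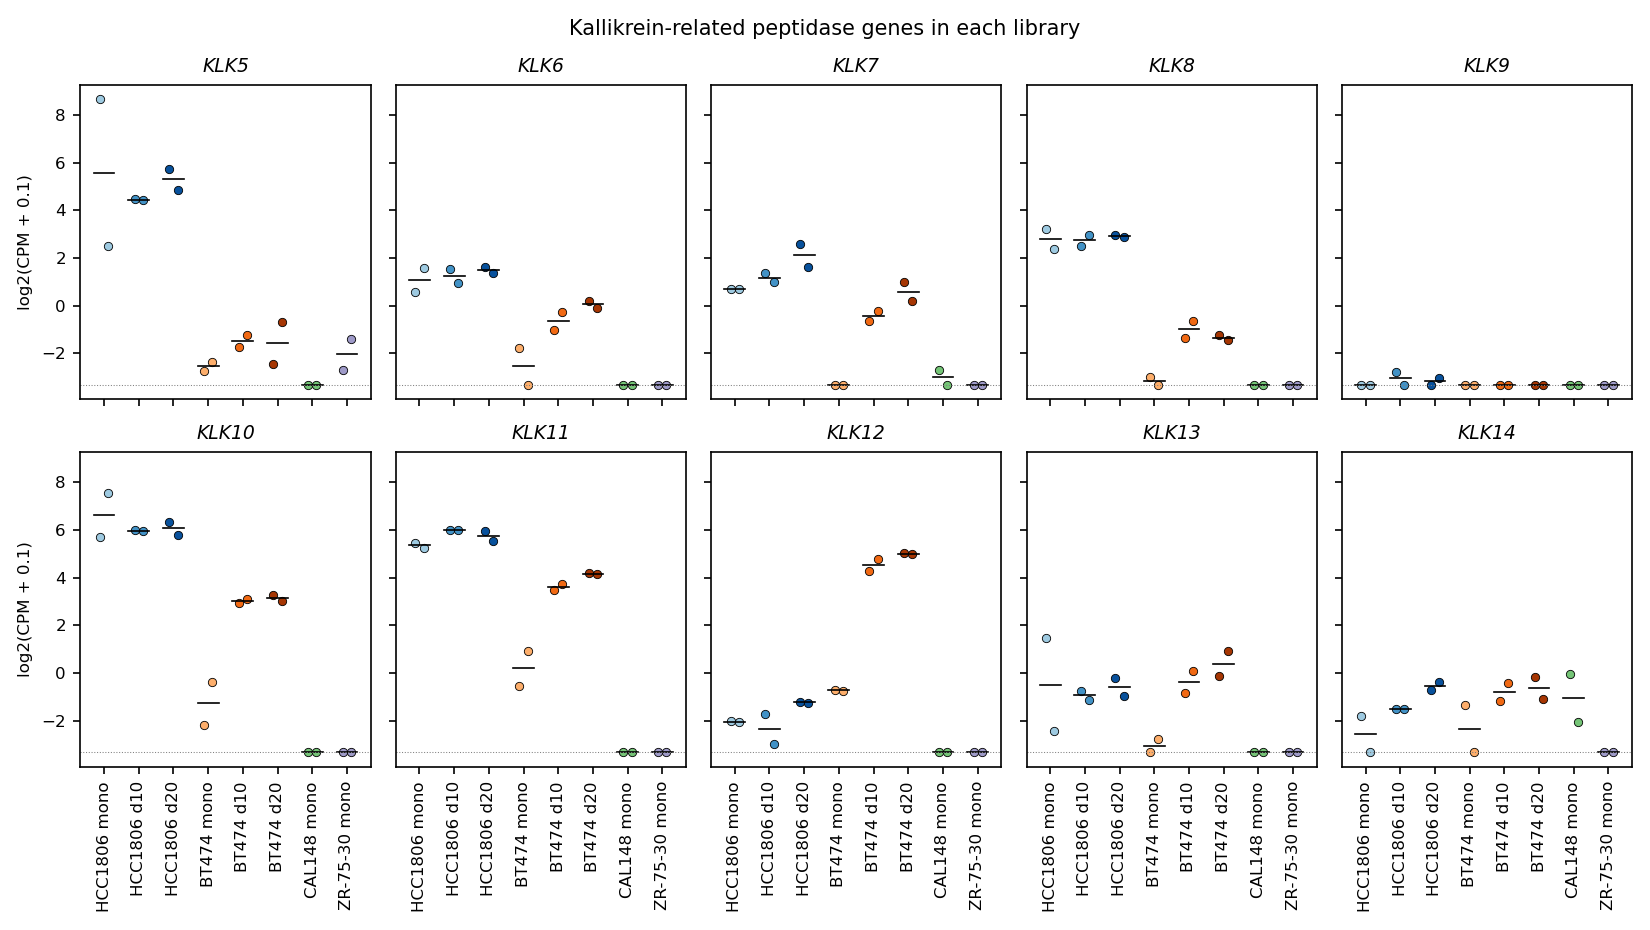
Level of each of the 10 genes in each library, as log2(CPM + 0.1), with 1 point per library, a line at the mean of the 2 libraries of a group and a dotted line at 0 CPM. BT474 spheroids stand above BT474 monolayers for KLK12 (0.500 to 0.514 CPM in monolayers, 19.5 to 32.3 CPM in spheroids), and the 2 HCC1806 monolayers lie far apart for KLK5 (408 and 5.51 CPM). CAL148 and ZR-75-30 lie at or near 0, except for KLK14 in CAL148 (0.873 and 0.142 CPM).

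KLK11 and KLK10, the next 2 genes along the chromosome, showed the same order of groups. KLK11, a trypsin-like protease of secretory epithelia, had 0.588 and 1.81 CPM in the BT474 monolayers, 10.9 and 13.3 CPM at day 10 and 18.3 and 17.5 CPM at day 20. KLK10 had 0.122 and 0.667 CPM in the monolayers, 7.46 and 8.42 CPM at day 10 and 9.48 and 8.03 CPM at day 20. In both genes every spheroid library exceeded both monolayers, although the 2 monolayers themselves differed by a factor that the spheroid pairs did not show. The log2 fold change of KLK11 was 3.28 ± 0.33 at day 10 and 3.90 ± 0.33 at day 20. For KLK10 it was 4.26 ± 0.40 and 4.46 ± 0.41.

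The other members were expressed at lower levels in BT474. KLK7, the chymotrypsin-like enzyme of the cornified layer, had 0 counts in both monolayers, 22 and 49 counts at day 10 and 69 and 40 at day 20. Against a floor of 3 counts over the monolayer pair it was at least 18.5-fold higher at day 10 and at least 40.2-fold higher at day 20. KLK8, a trypsin-like protease known from skin and brain, had 1 and 0 counts in the monolayers, 12 and 35 at day 10 and 12 and 10 at day 20. The ratio of its depth-scaled counts to the monolayers was 36.7 at day 10 (exact 95% interval 6.27 to 1480) and 24.3 at day 20 (3.93 to 1000), where the intervals cover counting error only. KLK13, which cleaves matrix proteins in vitro, had 0 and 2 monolayer counts, 19 and 63 at day 10 and 30 and 67 at day 20, with ratios of 32.0 (8.58 to 269) and 53.6 (14.5 to 449). Among gene counts of 1 to 20, even counts were 1.51 to 2.04 times as frequent as odd ones in every library. Single counts may therefore not be independent, and these intervals may be too narrow. KLK7, KLK8 and KLK13 were also called higher at both days with all counts halved. None of these 3 genes passed 2 CPM in any BT474 library.

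KLK6, a trypsin-like protease abundant in brain and often high in carcinomas, had 8 and 0 counts in the BT474 monolayers, 16 and 48 at day 10 and 39 and 32 at day 20. Its log2 fold change was 2.48 ± 0.73 at day 10 and 3.27 ± 0.71 at day 20. KLK5 and KLK14, which act early in the epidermal cascade, were nearer to their monolayer levels. KLK5 had 2 and 4 monolayer counts, 8 and 21 at day 10 and 3 and 20 at day 20, so the day 20 libraries overlapped the monolayers. KLK14 had 12 and 0 counts, then 14 and 42, then 29 and 14, and the lowest spheroid library lay just above the higher monolayer in CPM (0.345 against 0.294). Without monolayer replicate 1, the 1 monolayer with KLK14 counts, KLK14 was called higher at both days. KLK9 had no counts in any BT474 library.

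By the fit across all 20606 genes, 7 of the 9 tested members (KLK6, KLK7, KLK8, KLK10, KLK11, KLK12, KLK13) were called higher in BT474 spheroids at day 10, at an adjusted p under 0.05 (edgeR, Benjamini-Hochberg). Of all genes tested 6.58% were called higher and 12.2% were called in either direction. At day 20 the same 7 members were called higher, where 7.4% of all genes were called higher and 14.6% in either direction. These counts used the contrast for which the genes were chosen and are given as a description. The day 10 call of KLK6 was lost without any 1 of the libraries other than BT474 monolayer replicate 1. Its log2 fold change was then 1.51 without monolayer replicate 2, 2.79 without day 10 replicate 1, 2.00 without day 10 replicate 2, and 2.48 or 2.49 without any of the other 6. When the 2 HCC1806 monolayers were put back into the fit, whose spread all groups share, 3 members were called at each day (KLK7, KLK11 and KLK12), with the log2 fold change of KLK12 again 5.48 and 5.98.

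Between day 10 and day 20 of BT474 no member was called by edgeR or by DESeq2, 3 of 9 had an unadjusted p under 0.05 in edgeR, and 0.281% of all genes were called. The day 20 libraries were both above the day 10 libraries for KLK6, KLK7, KLK11 and KLK12. The share of all genes that separated in this way is not given. Nor is the share with an unadjusted p under 0.05, here and below, so these counts are descriptions only. The log2 differences were 1.22 ± 0.43 for KLK7, 0.62 ± 0.25 for KLK11 and 0.50 ± 0.19 for KLK12. KLK8 was the 1 member with a lower mean at day 20, at -0.47 ± 0.43, and its libraries overlapped. Leaving out either BT474 monolayer, which enters only the shared spread, made KLK11 a called gene, with log2 differences of 0.62 and 0.61.

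In HCC1806 the family was expressed in every library, and the members that led were KLK5, KLK10 and KLK11. Summed over the 10 genes, the monolayers held 519.5 and 238.7 CPM, the day 10 spheroids 161.9 and 158 CPM and the day 20 spheroids 214.6 and 145.2 CPM. All 4 spheroid CPM sums were below both monolayer sums. By FPKM, which also scales for gene length, the monolayers summed to 314.3 and 68.63 and the day 10 spheroids to 59.02 and 57.12. The day 20 spheroids summed to 86.59 and 56.46 FPKM, so replicate 1 at day 20 exceeded monolayer replicate 2. KLK11 was the steadiest of the leading genes, with 43.7 and 38.2 CPM in the monolayers, 64.4 and 63.0 CPM at day 10 and 61.9 and 46.5 CPM at day 20. All 4 spheroid libraries were above both monolayers, by a log2 fold change of 0.65 ± 0.40 at day 10 and 0.42 ± 0.40 at day 20. This difference was within 2 SE and was not called.

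KLK5 and KLK10 differed more between the 2 HCC1806 monolayer libraries than between any of the spheroids. KLK5 had 10907 counts (408 CPM) in monolayer replicate 1 and 198 counts (5.51 CPM) in replicate 2, with 22.1 and 21.3 CPM at day 10 and 52.9 and 28.8 CPM at day 20. The spheroids thus lay between the 2 monolayers. KLK10 went the other way, with 52.3 CPM in monolayer replicate 1 and 185 CPM in replicate 2, 63.5 and 61.8 CPM at day 10 and 81.6 and 55.8 CPM at day 20. KLK13 followed KLK5, with 71 and 3 counts in the monolayers and 14 to 30 counts in the 4 spheroid libraries. Of the members, then, replicate 1 held the higher KLK5 and KLK13 and replicate 2 the higher KLK10.

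The sign of these 3 differences depended on which monolayer was kept. For KLK5 the log2 fold change at day 10 was -3.29 ± 1.42 with both monolayers, 1.97 without replicate 1 and -4.25 without replicate 2. At day 20 it was -2.38 ± 1.37, 2.89 and -3.34 in the same order. KLK10 gave -0.88 ± 0.60 at day 10, then -1.57 without replicate 1 and 0.24 without replicate 2. KLK13 gave -1.69 ± 1.24, 2.31 and -2.64. At day 20 KLK10 gave -0.74, -1.44 and 0.38, and KLK13 gave -1.23, 2.76 and -2.19. KLK6 and KLK8, with smaller differences, also changed sign. At day 10 KLK6 gave 0.15, -0.32 and 0.73, and KLK8 gave -0.09, 0.39 and -0.48. At day 20 KLK6 gave 0.39, -0.08 and 0.97, and KLK8 gave 0.08, 0.57 and -0.31. KLK14 gave 1.5 at day 10 and 2.72 at day 20 with both monolayers and 0.40 and 1.62 without replicate 2, and without replicate 1 the remaining monolayer had 0 counts. The mitochondrial share of counts differed between the same 2 libraries, as given above, and its part in these values was not tested.

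The remaining members showed smaller differences in HCC1806. KLK8 had 9.14 and 5.03 CPM in the monolayers, 5.61 and 7.67 CPM at day 10 and 7.71 and 7.24 CPM at day 20, and all groups overlapped. KLK6 stayed between 1.39 and 2.98 CPM in all 6 libraries, also with overlap between groups. KLK7 had at most 1.54 CPM in the monolayers, 2.48 and 1.88 CPM at day 10 and 5.89 and 3.01 CPM at day 20, so that each group lay above the one before. Its log2 fold change against monolayer was 0.54 ± 0.48 at day 10 and 1.57 ± 0.49 at day 20. KLK12, the leading member of BT474 spheroids, had between 1 and 14 counts per HCC1806 library and KLK14 between 0 and 29. KLK9 had 2 counts at day 10 and 1 at day 20, each in a single library.

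No member was called in HCC1806 spheroids against monolayer by edgeR, where 8.72% of all 20929 genes were called at day 10 and 11.1% at day 20. One of 9 members had an unadjusted p under 0.05 at each day. DESeq2 called 1 member at each day, KLK5 lower at day 10 (log2 -3.37) and KLK7 higher at day 20 (1.52). Without monolayer replicate 1 edgeR called 2 members at day 10 and 5 at day 20, and without replicate 2 it called 2 and 3. From day 10 to day 20 no member was called by edgeR or DESeq2, 3 had an unadjusted p under 0.05, and 6.8% of all genes were called. The log2 differences at that step were 0.92 ± 0.31 for KLK5, 1.03 ± 0.39 for KLK7, 1.44 ± 0.56 for KLK12 and -0.22 ± 0.24 for KLK11. KLK5 was called without HCC1806 day 20 replicate 2 (log2 1.30) and without BT474 day 20 replicate 1 or 2 (0.93 each). KLK12 was called without HCC1806 day 10 replicate 1 (3.55).

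The change from day 10 to day 20 was also compared between the lines in 1 model. No member was called by edgeR or DESeq2 in that comparison, 1 had an unadjusted p under 0.05, and 2.67% of all genes were called. KLK11 showed the widest separation relative to its error, with a log2 step of 0.62 in BT474 and -0.22 in HCC1806, a difference of -0.84 ± 0.35. It was called without BT474 monolayer replicate 1 (-0.84) or replicate 2 (-0.85).

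CAL148 and ZR-75-30 monolayers held almost no kallikrein RNA. In CAL148 KLK14 had 32 and 6 counts (0.873 and 0.142 CPM) and KLK7 2 and 0 counts, and the other 8 members had none. The CAL148 mean of KLK14, 0.508 CPM, was near those of BT474 at day 10 (0.493) and day 20 (0.577). In ZR-75-30 KLK5 had 2 and 6 counts and the other 9 members had none. A count of 0 in these 4 libraries allows up to between 0.0711 and 0.139 CPM. Ordered by group mean, KLK12 was therefore highest in BT474 at day 20, then BT474 at day 10, whose 2 means of 31.8 and 23.6 CPM lay within 2 SD of each other (SD 0.569 and 5.76, n = 2). The order of KLK11 put the 3 HCC1806 groups first (63.7, 54.2 and 40.9 CPM at day 10, day 20 and monolayer), with overlapping spheroid ranges of mean ± SD, before BT474 day 20 (17.9), day 10 (12.1) and monolayer (1.20).

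Levels of different genes can be compared only per length, for which the deposited FPKM values served. In BT474 spheroids KLK12 took between 62.4% and 64.4% of the summed FPKM of the 10 genes in each of the 4 libraries, KLK11 between 17.6% and 20.1% and KLK10 between 7.44% and 10.9%. The make-up was thus nearly the same at both days, while the sum itself was 0.839 and 1.06 FPKM in the monolayers and 16.8 to 27.6 FPKM in the spheroids. In HCC1806 spheroids KLK12 was at most 0.338% of the sum. At day 10 KLK11 led with 36.55% and 36.57%, before KLK10 (29.11% and 28.95%) and KLK5 (23.6% and 23.3%). At day 20 KLK5 led with 39% and 32.1%. The 2 HCC1806 monolayers had opposite make-ups, with KLK5 at 87.5% of the sum in replicate 1 and 4.86% in replicate 2, and KLK10 at 4.81% and 70.1%. The 3 leading genes and their order were the same by CPM per kilobase in 6 of 6 groups of the 2 lines. Both measures divide counts by the same gene lengths, so within a library the order could not differ, and this is no separate check.

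**Figure D2:**
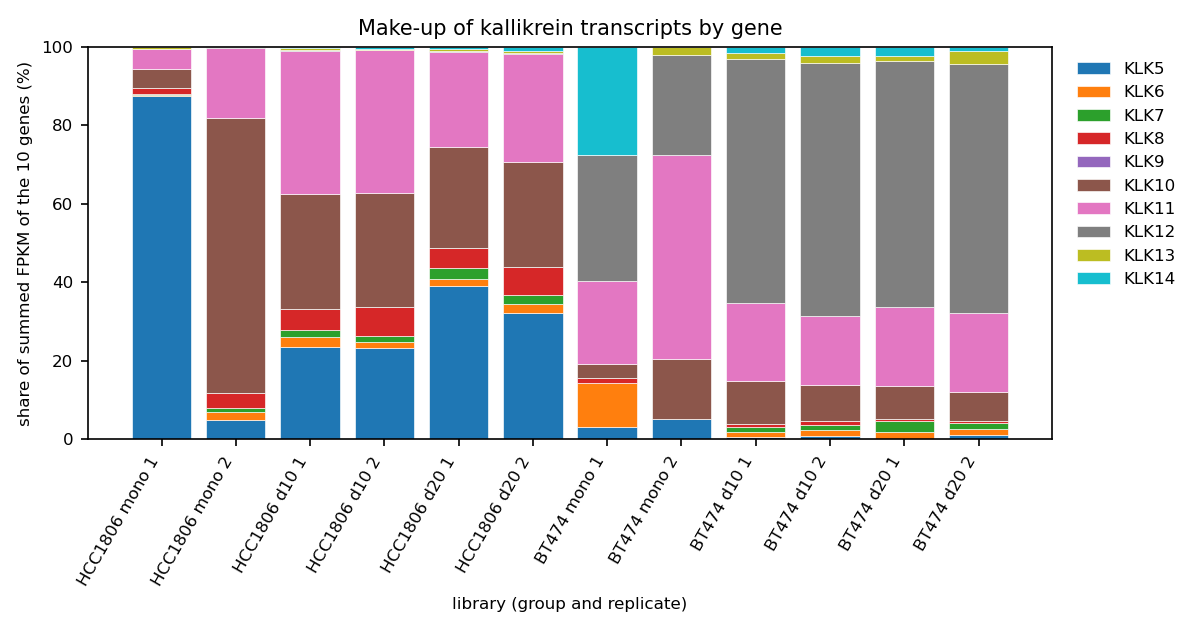
Share of each gene in the summed FPKM of the 10 genes, in percent, for each HCC1806 and BT474 library, 1 bar per library. KLK12 fills 62.4% to 64.4% of each BT474 spheroid bar, KLK5, KLK10 and KLK11 fill most of each HCC1806 spheroid bar, and the 2 HCC1806 monolayer bars differ, with KLK5 at 87.5% and 4.86%. The BT474 monolayer bars rest on 73 and 131 counts over all 10 genes.

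Along the chromosome the BT474 signal was highest over 3 adjacent genes. KLK10, KLK11 and KLK12 lie within 51012739 to 51035230, with gaps of 2040 and 1052 bases between them, and the next gene, KLK13, lies 20975 bases farther on. On the other side KLK9, 3104 bases before KLK10, had no counts in BT474. KLK5 to KLK8 and KLK13 to KLK14, to either side, were at or below 2 CPM in each BT474 spheroid library. In HCC1806 the profile by CPM, which is not scaled for gene length, had 2 separate high stretches, KLK5 alone and KLK10 with KLK11. It dropped to at most 0.329 CPM at KLK12. In monolayer replicate 2 the KLK5 level was 5.51 CPM, near the 5.03 CPM of KLK8.

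**Figure D3:**
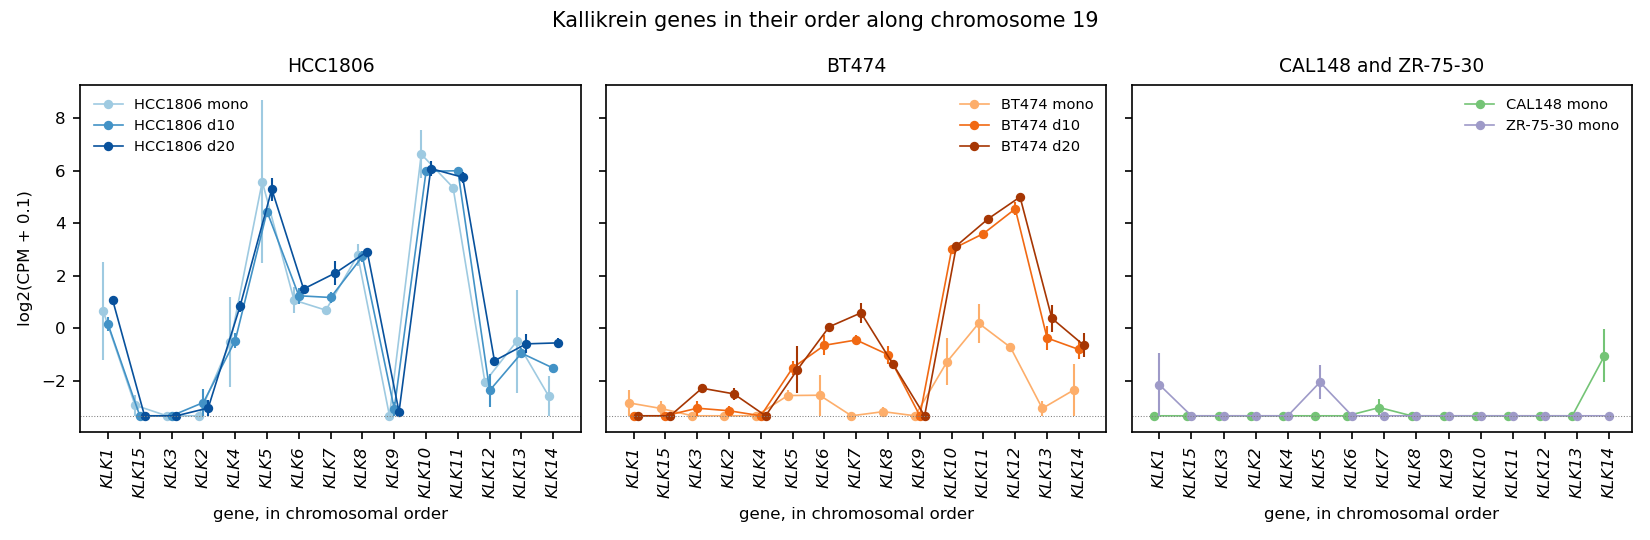
The 15 kallikrein genes in their order along chromosome 19, with log2(CPM + 0.1) on the vertical axis, points at the mean of the 2 libraries of a group, bars from the lower to the higher library and a dotted line at 0 CPM. BT474 spheroids peak at KLK12 (19.5 to 32.3 CPM), beside KLK11 and KLK10, and HCC1806 has peaks at KLK5 and at KLK10 and KLK11 with KLK12 at most 0.329 CPM. The KLK5 bar of the HCC1806 monolayers runs from 5.51 to 408 CPM.

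The 5 other kallikrein genes lie on the KLK5 side of the cluster, from KLK1 at 50819148 to KLK4 at 50910738. KLK3, which encodes prostate-specific antigen, and KLK2 are the members known from prostate. In BT474 KLK3 had 0 counts in the monolayers, 2 over both day 10 libraries and 8 over both day 20 libraries, and KLK2 had 0, 2 and 6, so neither passed 0.12 CPM in any library. KLK4 had no counts in BT474, and KLK1 had 4 in the monolayers and none in spheroids. In HCC1806 KLK1 had 150 and 12 counts in the monolayers and 37 to 87 counts in spheroids, and KLK4 had 2.21 and 0.111 CPM and 0.496 to 1.95 CPM, so for both genes monolayer replicate 1 held the most. KLK15 had 2 counts in an HCC1806 monolayer and 2 in a BT474 monolayer.

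Outside the cluster, the nearest protein-coding genes differed far less in BT474 than KLK10, KLK11 and KLK12. For C19orf48 and CTU1 all spheroid libraries were nevertheless above both monolayers. The log2 fold changes at day 10 and day 20 were 0.09 and 0.21 for C19orf48 and 0.30 and 0.23 for CTU1. C19orf48, the nearest gene before KLK1, had a mean of 133 CPM in BT474 monolayers, 147 CPM at day 10 and 153 CPM at day 20 and was not called (adjusted p = 0.474 and 0.0713, edgeR). CTU1, the nearest after KLK14, had 17.4, 22.2 and 20.2 CPM and was not called (0.164 and 0.285). In HCC1806 C19orf48 fell from 208 CPM in monolayers to 62.7 CPM at day 10, a log2 fold change of -1.72 ± 0.18 (adjusted p = 0.00256), and to 57.5 CPM at day 20, -1.84 ± 0.19 (0.00153). Both calls held when each of the 12 libraries was left out in turn and were lost with HCC1806 fitted alone (0.146 and 0.0956). CTU1 had means of 47.7 CPM in HCC1806 monolayers, 20.1 CPM at day 10 and 18.9 CPM at day 20. Its spheroid libraries were all below both monolayers, by -1.26 and -1.34, and it was not called (adjusted p = 0.101 and 0.0766, edgeR). The 4 other neighbours (ACP4, AC010325.1, SIGLEC9, SIGLEC7) were too low to test.

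Some members share exonic bases with other annotated genes, and the sources used here do not give the strand setting of the counting. In GENCODE 29 the protein-coding gene AC011473.4, on the same strand, covers 787 of the 840 exonic bases of KLK9 (93.7%) and 747 of the 1865 of KLK8 (40.1%). Its own counts were between 4 and 63 in the HCC1806 libraries and at most 2 in the BT474 libraries. Whether the counting left out reads that match both genes was not tested, so the low KLK9 counts are uncertain and KLK8 may be understated. Antisense genes cover 20.3% of the exonic bases of KLK6, 12.2% of KLK5, 9.04% of KLK12 and 6.23% of KLK10. The antisense gene over KLK12, AC011473.3, had 5 to 14 counts in the BT474 spheroids, beside 794 to 1813 for KLK12. KLK7, KLK11, KLK13 and KLK14 overlap no other gene's exons.

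The start regions of the 3 adjacent genes that were highest in BT474 spheroids, and that of KLK5, which was high in HCC1806 and near 0 in BT474, are shown for comparison. Each line gives 250 bases before and 50 after an annotated transcript start on the minus strand (RefSeq, GRCh38.p14), written 5′ to 3′ along the gene, with the letters GGGCGG or their complement CCGCCC in capitals.
KLK5, chr19:50952989-50953288: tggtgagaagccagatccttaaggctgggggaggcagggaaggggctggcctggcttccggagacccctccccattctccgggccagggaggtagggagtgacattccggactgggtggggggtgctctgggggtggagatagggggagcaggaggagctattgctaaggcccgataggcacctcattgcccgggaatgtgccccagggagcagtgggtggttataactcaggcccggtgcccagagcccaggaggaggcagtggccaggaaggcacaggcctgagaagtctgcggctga
KLK10, chr19:51019812-51020111: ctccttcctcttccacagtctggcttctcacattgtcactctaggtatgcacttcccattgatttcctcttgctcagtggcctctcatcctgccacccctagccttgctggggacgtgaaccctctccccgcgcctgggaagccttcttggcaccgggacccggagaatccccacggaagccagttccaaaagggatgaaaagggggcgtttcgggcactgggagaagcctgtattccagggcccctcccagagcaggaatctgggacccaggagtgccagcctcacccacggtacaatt
KLK11, chr19:51026567-51026866: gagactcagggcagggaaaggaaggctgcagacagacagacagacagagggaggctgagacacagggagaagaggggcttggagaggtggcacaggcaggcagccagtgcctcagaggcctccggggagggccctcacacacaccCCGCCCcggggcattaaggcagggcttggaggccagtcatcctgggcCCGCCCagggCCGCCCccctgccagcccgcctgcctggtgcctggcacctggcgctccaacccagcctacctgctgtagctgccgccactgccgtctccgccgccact
KLK12, chr19:51034953-51035252: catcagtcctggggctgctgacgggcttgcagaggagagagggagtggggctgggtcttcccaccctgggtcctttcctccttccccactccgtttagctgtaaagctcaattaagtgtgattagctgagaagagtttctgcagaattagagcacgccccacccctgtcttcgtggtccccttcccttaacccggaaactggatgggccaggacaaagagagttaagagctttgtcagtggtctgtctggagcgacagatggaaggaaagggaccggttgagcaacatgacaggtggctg
These letters are the core of the GC box. Matches were found in the KLK11 window shown, at 3 places on the opposite strand, and in none of the windows shown for KLK5, KLK10 or KLK12.

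RefSeq windows were found for 9 of the 10 members, 16 windows in all. The search covered 5 short motifs on both strands. TATAAA is the TATA box. The AP-1 motif was searched as TGANTCA. A grainyhead motif was searched as AACCNGTT. The last, CCGTTA, is a core that MYB factors bind. Of these, only GGGCGG was present in any window, in at least 1 window of KLK6, KLK7, KLK9, KLK11, KLK13 and KLK14. Over 35116 windows of the same length GGGCGG was present in 45%, TATAAA in 11.5%, TGANTCA in 7.71%, CCGTTA in 3.07% and AACCNGTT in 1.73%. KLK11 has another window, upstream of the one shown, without a match.

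Other genes of the kallikrein system were taken as a list of 49, of which 39 were tested. It holds inhibitors, activating proteases, substrates, nuclear receptors, transcription factors of the epidermis and markers of suprabasal keratinocytes. In BT474, 6 of the 39 rose and 6 fell at day 10, and 2 rose and 5 fell at day 20. Of all genes tested, 12.2% at day 10 and 14.6% at day 20 were called in either direction, and 0.281% between the 2 days. The median log2 fold change was -0.03 at day 10 and -0.08 at day 20 (-0.05 and -0.12 with genes at 0 counts in 1 group placed at their bound, or left out where the other group was also at or under the floor), where the median of all genes was 0. No list gene was called between the 2 days by edgeR, 8 had an unadjusted p under 0.05, and DESeq2 called 2. The number called at day 10 went from 12 to 7 without BT474 day 10 replicate 1 and to 3 without replicate 2. At day 20 it went from 7 to 13 and 12 without monolayer replicate 1 or 2, and to 4 without day 20 replicate 2. With the 2 HCC1806 monolayers in the fit (12 libraries) 0 list genes were called at day 10 and 1, SERPINA5, at day 20, and with all 16 libraries none at either day.

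Among the inhibitors, SERPINA5 rose with the kallikreins in BT474. SERPINA5, or protein C inhibitor, blocks several kallikreins and had 27 and 20 counts in the monolayers, 332 and 783 at day 10 and 380 and 382 at day 20. Its mean level was 0.569 CPM in monolayers, 10.1 CPM at day 10 and 10.2 CPM at day 20. The log2 fold change was 4.09 ± 0.295 at day 10 (adjusted p = 7.13e-06, edgeR) and 4.17 ± 0.30 at day 20 (5.25e-06). Each call held without any single library and with BT474 fitted alone, and with all 16 libraries neither was kept (0.284 and 0.267). SERPINA5 had no counts in HCC1806 or CAL148. A2ML1, an epidermal protease inhibitor, rose from a mean of 3.73 to 8.83 CPM at day 10 (log2 1.19 ± 0.21, 0.00213). SPINK5, the main inhibitor of KLK5 and KLK7, had at most 6 counts in any BT474 library. SPINT1, a matriptase inhibitor, fell from 288 to 249 CPM at day 10 (-0.26 ± 0.08, 0.0438) and to 220 CPM at day 20 (-0.37 ± 0.08, 0.00582). Of the substrates, SMPD1, the acid sphingomyelinase that skin kallikreins can degrade, fell from 55.4 to 38.9 CPM at day 10 (0.00392) and to 35.6 CPM at day 20 (0.00182). Of these genes, SPINT1 and, at day 20, A2ML1 lost a call without at least 1 library, as did SMPD1 at day 10.

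The steroid receptor genes PGR and ESR1 were expressed in all BT474 groups. PGR, the progesterone receptor, had 354 and 697 CPM in the monolayers, 1013 and 1147 CPM at day 10 and 1049 and 1235 CPM at day 20. All spheroid libraries were above both monolayers, and the difference of 0.98 ± 0.36 at day 10 and 1.13 ± 0.36 at day 20 was not called (adjusted p = 0.178 and 0.123, edgeR). ESR1, the oestrogen receptor, overlapped between groups, at 68.8 to 105 CPM. RARG, a retinoic acid receptor, rose at day 10 by 0.38 (0.0215). The epidermal transcription factor GRHL3 fell from 3.43 CPM in monolayers to 1.02 CPM at each day (0.00518 and 0.00901), and OVOL1 fell by 0.47 at day 10 (0.0259). Of the 8 suprabasal genes, TGM3 rose by 2.05 (0.0158) and CASP14 by 1.82 (0.034) at day 10 and KRT1 fell from 0.970 to 0.0552 CPM (0.00549). At day 20 TGM1 fell by 1.76 (0.00434). Each call in the last 4 sentences was lost without at least 1 library.

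In HCC1806, 11 of the 39 list genes rose and 1 fell at day 10, and 14 rose and 1 fell at day 20, against monolayer. From day 10 to day 20, 14 rose and 2 fell. Of all genes tested, 8.72% at day 10 and 11.1% at day 20 were called against monolayer, in either direction. Between the days 6.8% were called. The median log2 fold change was 0.60, 0.84 and 0.23 in this order, where the median of all genes was 0 in each, and placing genes at their bound left all 3 medians as they were. The number called against monolayer went from 12 to 23 and 27 at day 10 without monolayer replicate 1 or 2 and to 3 without either day 10 library. At day 20 it went from 15 to 29 and 32 without monolayer replicate 1 or 2 and to 5 and 6 without day 20 replicate 1 or 2. From day 10 to day 20 it went from 16 to 7, 8 and 9 without day 10 replicate 1, day 10 replicate 2 or day 20 replicate 1. None of the called genes changed sign when a library was left out. With HCC1806 fitted alone none of the list genes was called in any of these 3 comparisons, and from day 10 to day 20 none was called with 12 or with all 16 libraries either.

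DSG1 and DSC1, which encode desmosomal adhesion proteins and are 2 of the 9 tested substrates, rose in HCC1806. CDSN, the gene of corneodesmosin, had 2, 5 and 3 counts in the 3 HCC1806 groups and was not tested. DSG1, desmoglein 1, had 0 counts in both monolayers, 146 and 119 counts at day 10 and 1474 and 1689 at day 20. It was at least 66.1-fold higher at day 10 (adjusted p = 0.00388, edgeR) and at least 798-fold higher at day 20 (0.00112) than the monolayers, and rose between the days from 3.16 to 38.2 CPM (2.94e-07). All 3 calls held without any single library. With all 16 libraries the calls against monolayer were kept (0.00746 and 0.00215) and the call between the days was not (0.811), and with HCC1806 alone none was (0.0836, 0.062 and 1). SPINK5 had 3.03 and 3.56 CPM in the monolayers, 37.7 and 32.6 CPM at day 10 and 43.7 and 29.9 CPM at day 20. It rose by 3.43 ± 0.58 at day 10 (0.0142) and from a mean of 3.30 to 36.8 CPM at day 20 (0.0117), and the calls were lost without either spheroid library of the day compared (0.107 and 0.0994 at day 10, 0.0937 and 0.0659 at day 20). PLAU, the urokinase that can activate kallikreins, rose from a mean of 35.6 to 147 CPM at day 10 (2.05 ± 0.40, 0.0177) and 132 CPM at day 20 (1.91 ± 0.39, 0.0191), and lost its day 10 call without either day 10 library (0.119 and 0.116) and its day 20 call without any of the 4 spheroid libraries (0.0527 to 0.138).

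Of the 8 genes of suprabasal keratinocytes, 3 rose in HCC1806 from monolayer to day 10, 4 from monolayer to day 20 and 7 from day 10 to day 20. Against monolayer TGM1, KRT10 and TGM3 were not called, with means of 11.9, 2.21 and 5.60 CPM for TGM1 in monolayers, day 10 and day 20, 94.8, 79.1 and 193 CPM for KRT10 and 0.346, 0.231 and 1.32 CPM for TGM3. KRT1, the keratin of the first suprabasal layer, had 2.77 and 0.139 CPM in the HCC1806 monolayers, 47.8 and 43.2 CPM at day 10 and 693 and 733 CPM at day 20. It rose by 8.96 ± 1.26 on the log2 scale from monolayer to day 20 (adjusted p = 0.00503, edgeR) and by 3.98 ± 0.20 from day 10 to day 20 (7.13e-06). SBSN, suprabasin, rose from 0.658 to 19.8 CPM at day 10 (4.94 ± 0.49, 0.00215) and to 76.1 CPM at day 20 (6.88 ± 0.53, 0.000715). GRHL1, a grainyhead factor of the epidermis, rose from 8.47 to 26.3 CPM at day 20 (1.65 ± 0.21, 0.00333), and ZNF750 rose from 11.8 CPM at day 10 to 28.3 CPM at day 20 (1.27 ± 0.15, 0.000137). These calls held without any single library. With HCC1806 alone they were lost (KRT1 0.115 and 1, SBSN 0.133 and 0.0815, GRHL1 0.121, ZNF750 1). The size of several folds depended on the monolayer kept. The log2 fold change of KRT1 at day 20 was 12.29 without monolayer replicate 1 and 7.99 without replicate 2, and at day 10 it was 8.32 and 4.02. At day 20 that of SBSN was 7.50 and 6.38, that of DSC1 5.24 and 11.33, that of IVL 2.36 and 4.64 and that of CASP14 10.53 and 4.24, in the same order. At day 10 SBSN gave 5.56 and 4.44, DSC1 3.72 and 9.82 and IVL 1.71 and 3.99. Other members of these lists were called but lost the call without at least 1 library. DSC1, desmocollin 1, rose from 0.0973 to 2.61 CPM at day 10 (0.0168) and 7.49 CPM at day 20 (0.00613). GRHL3 rose from 13.8 to 40.8 CPM at day 10 (0.0437) and 45.8 CPM at day 20 (0.027), OVOL1 from 14.3 to 30.1 CPM at day 10 (0.0111) and TP63 from 248 to 552 CPM at day 20 (0.0245). IVL, involucrin, rose from 15.1 to 82.2 CPM at day 10 (0.0469) and CASP14 from 0.112 to 4.35 CPM at day 20 (0.0199). VDR, the vitamin D receptor, fell from 24.4 to 15.3 CPM at day 10 (0.0398). From day 10 to day 20 KLF4 rose from 50.1 to 64.4 CPM (0.0309), NR3C1 from 100 to 137 CPM (0.0153) and TGM3 from 0.231 to 1.32 CPM (0.017). FLG, which encodes filaggrin, had means of 2.45, 7.95 and 25.9 CPM in monolayers, day 10 and day 20 and was not called. The summed level of 8 such markers was 164.1 and 84.7 CPM in the HCC1806 monolayers. It was 234.8 and 225.3 CPM at day 10 and 1141 and 1108 CPM at day 20. The summed CPM of the kallikreins was lower in these spheroids than in the monolayers, where KLK5 led in replicate 1 and KLK10 in replicate 2. By summed FPKM, day 20 replicate 1 (86.59) lay above monolayer replicate 2 (68.63). In BT474 spheroids, where KLK12 was highest, KRT1 was at most 0.476 CPM.

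**Figure D4:**
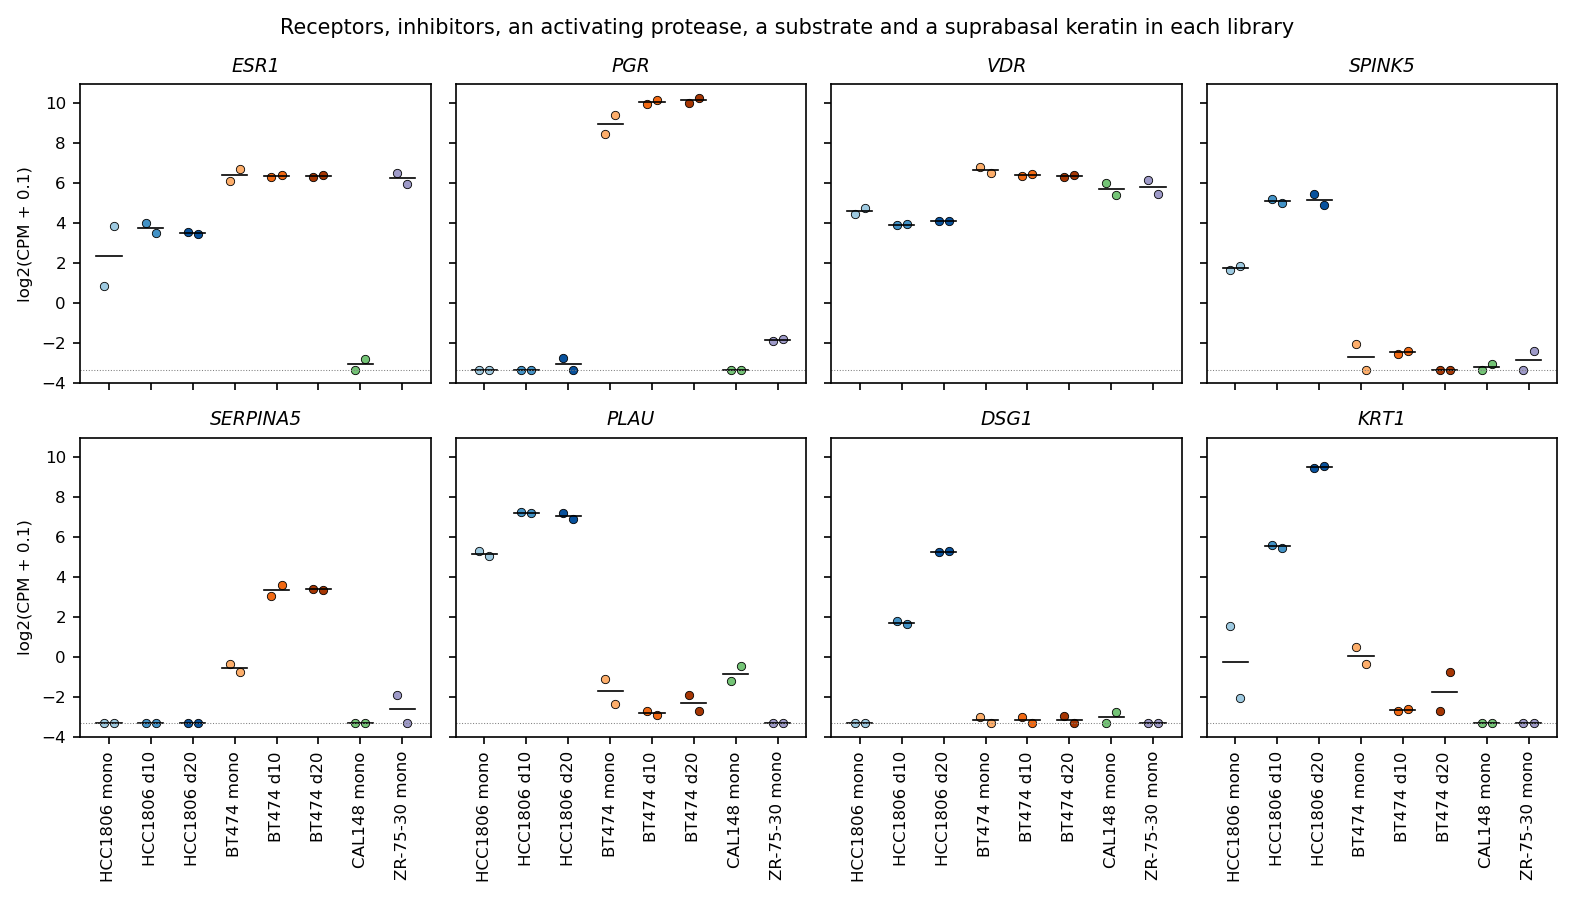
Levels of 8 genes of the kallikrein system in each library, as log2(CPM + 0.1), with 1 point per library, a line at the group mean and a dotted line at 0 CPM. SERPINA5 is higher in BT474 spheroids (at least 8.17 CPM) than in BT474 monolayers (0.477 and 0.661), and SPINK5, PLAU, DSG1 and KRT1 are higher in HCC1806 spheroids than in HCC1806 monolayers.

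SPINT2 and ST14, which act on the activating step, fell from day 10 to day 20 in HCC1806. SPINT2, an inhibitor of the kallikrein-activating protease matriptase, fell from 449 to 263 CPM (-0.76 ± 0.08, adjusted p = 9.09e-05, edgeR), a call that held without any single library and was lost with 12 libraries (0.509). Against the monolayer mean of 462 CPM SPINT2 was also lower at day 20 (-0.79 ± 0.17, adjusted p = 0.0217, edgeR), a call lost without at least 1 library. ST14, which encodes matriptase, fell from 362 to 266 CPM (-0.43 ± 0.09, 0.01), and this call was lost without day 10 replicate 1 (0.151) or day 20 replicate 2 (0.0805). In the model that compares the step from day 10 to day 20 between the lines, 9 list genes moved up more in HCC1806 and 1, SPINT2, moved down more, and none of the 10 was called with 12 or with all 16 libraries. Of all genes tested, 2.67% were called in that model.

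The genes whose group means ran most like those of a member were found among 14342 protein-coding genes outside the family, by Pearson correlation of log2(mean CPM + 1) over the 8 groups. For KLK5 they were PCYT1B (r = 0.999), NRG1 (0.999) and CD40 (0.998), for KLK10 NADSYN1 (0.984), LAMA3 (0.983) and PNPLA3 (0.982), and for KLK11 RAB31 (0.986), HSD17B11 (0.986) and KYNU (0.982). KLK12, added after its values were seen, was most like P2RY10 (0.998), LYZ (0.998) and GFRA2 (0.997). LYZ, lysozyme, had 0.327 CPM in BT474 monolayers, 18.1 CPM at day 10 and 24.9 CPM at day 20. The 8 points share their libraries and fall into few clusters, so r is a description, and by rank correlation 0 of the 3 genes were kept for each of the 4 members. The HCC1806 monolayer mean entered these values. Taken without replicate 1 or without replicate 2, it left r at 0.760 and 0.927 for KLK5 with PCYT1B, at 0.779 and 0.947 with NRG1 and at 0.982 and 0.996 with CD40, and none of the 3 was then among the 3 most like KLK5. For KLK10 r lay between 0.712 and 0.984 and 2 and 0 of its 3 genes were kept, for KLK11 it lay between 0.948 and 0.986 and 2 and 1 were kept, and for KLK12 all 3 were kept. KLK12 had 0.150 and 0.139 CPM in the 2 HCC1806 monolayers, and its 3 genes had 0 counts there. Their r with KLK12 could therefore barely change, and nothing is read from it.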

How the data were processed

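The authors deposited 2 tables of 58735 genes, 1 with raw read counts per library and 1 with FPKM values (counts scaled by gene length and depth), per the file headers. HISAT2 2.2.1, featureCounts 2.0.6 and the build GRCh38 are named in the submitters' processing notes, and the strand setting and the treatment of multiply mapped reads are not given in the sources used here. The counts were analysed as deposited in R 4.3.3 with edgeR 4.0.16, using TMM factors, filterByExpr (minimum count 10, minimum total 15) and the robust quasi-likelihood F test with Benjamini-Hochberg adjustment. Called means an adjusted p under 0.05. HCC1806 against monolayer was fitted on 12 libraries (20929 genes) and the 5 other comparisons on 10 libraries without the HCC1806 monolayers (20606 genes). FPKM served to compare levels between genes, to choose KLK5, KLK10 and KLK11 for the correlations and, summed over the 10 genes, to compare libraries. It entered no test. Library totals ran from 29696358 to 72489002 counts.

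The 10 members, the lists and the tests were chosen with earlier results of these data known. All members and the 5 other kallikreins are named. From the list, the rule picks up to 3 called genes per role and comparison, those with the largest absolute log2 fold change and a mean of at least 1 CPM in either group. Some calls that meet the rule are not given here. ESR1, PGR and FLG were added after their values were seen, and others, such as CDSN and, in BT474, KRT1, are also named outside the rule. Alternatives were DESeq2 1.42.0, RLE factors, no count filter, a replicate block, CPM per kilobase, other sets of libraries and leaving out each library, and, added after the data were seen, halved counts, a crossed block and, for the genes most like a member, 1 HCC1806 monolayer in place of the pair. Counts over the list include all tested genes, of which a few are not reported here by name. The scripts were tested on simulated data. Exons and gene positions are from GENCODE 29, and figures were drawn with matplotlib 3.10.9.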

Additional observations from a re-analysis of the deposited data

Results flagged for a closer look

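The step from day 10 to day 20 differed between HCC1806 and BT474 for 10 genes of the kallikrein list by edgeR's interaction test, with Benjamini-Hochberg adjustment over all genes. Of all genes tested, 2.67% were called in this comparison. The values that follow are the HCC1806 step minus the BT474 step on the log2 scale, with means of 2 libraries, and their causes were not tested. No kallikrein was among the 10.

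SPINT2, an inhibitor of matriptase, differed by -0.70 ± 0.12 (adjusted p = 0.00572), going from 449 to 263 CPM in HCC1806 and from 644 to 592 CPM in BT474. ZNF750, a factor of epidermal differentiation, differed by 1.38 ± 0.21 (0.0034), from 11.8 to 28.3 CPM and from 8.93 to 7.99 CPM. KRT10, the suprabasal partner of KRT1, differed by 1.22 (0.000116), from 79.1 to 193 CPM and from 44.6 to 45.1 CPM. These 3 calls held when each of the 10 libraries was left out. With the HCC1806 monolayers in the fit (12 libraries) or with all 16 libraries none of the 10 genes was called.

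The other 7 were lost without at least 1 library. The cornified-layer gene SBSN differed by 2.78 (0.0225; kept in 2 of 10 such fits), CASP14 by 3.39 (0.0134; 7 of 10), TGM1 by 2.33 (0.0159; 6 of 10) and TGM3 by 3.31 (0.0276; 4 of 10). The desmosomal gene DSC1 differed by 2.59 (0.0416; 3 of 10). NR3C1, the glucocorticoid receptor, differed by 0.83 (0.00958; 9 of 10) and KLF4 by 0.67 (0.0172; 4 of 10). In HCC1806 all of these 7 had a higher mean at day 20 and in BT474 a lower one.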

How the results depend on the processing

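No difference called in the edgeR fits described under processing reversed under the alternatives run. Differences not called in those fits did change sign in HCC1806 with 1 monolayer left out (KLK5, KLK6, KLK8, KLK10 and KLK13). Their direction therefore rested on the monolayer kept. DESeq2 called KLK5 lower at day 10 (log2 -3.37). There edgeR gave 1.97 when only monolayer replicate 2 was kept and -4.25 when only replicate 1 was. At day 20 KLK5 gave 2.89 and -3.34, and KLK13 gave 2.76 and -2.19, in the same order. RLE factors and halved counts left all 14 counts of called genes within 1.5 times. Without a count filter the members called were 2 in HCC1806 at day 10, 1 at day 20, 1 from day 10 to day 20, 1 in BT474 from day 10 to day 20 and 1 between the lines, and 2 list genes were called in BT474 from day 10 to day 20. DESeq2 called 1 member in HCC1806 at each day, and 2 list genes in BT474 from day 10 to day 20. With all 16 libraries 1 member was called in BT474 at day 10 and 2 at day 20, and 0 list genes were called in either, in HCC1806 from day 10 to day 20, or between the lines. With 12 libraries, HCC1806 monolayers included, 3 members were called in BT474 at each day, with 0 list genes at day 10, 1 at day 20, 0 in HCC1806 from day 10 to day 20 and 0 between the lines. With HCC1806 fitted alone 0 list genes were called in its 3 comparisons. The cause was not tested, beyond that these fits hold fewer samples or include the HCC1806 monolayer pair that stands apart. The fits on all 16 libraries also include CAL148 and ZR-75-30, whose SDs between replicates were 0.541 and 0.7.

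Leaving out each library gave 6 to 8 members called in BT474 at day 10, 7 to 8 at day 20 and 0 to 1 between the days. In HCC1806 it gave 0 to 2, 0 to 5 and 0 to 1, and 0 to 1 between the lines. For the list it gave 3 to 15, 4 to 13 and 0 to 3 in BT474, 3 to 27, 5 to 32 and 7 to 20 in HCC1806, and 3 to 12 between the lines.

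The replicate numbers are shared by the groups, but the labels do not say that they pair. The correlation of same-numbered deviations was -0.069, -0.193 and 0.171 between the HCC1806 groups and -0.019, 0.098 and 0.026 in BT474. With the replicate block 7 list genes were called in HCC1806 at day 10 and 1 member (KLK5) from day 10 to day 20, and the other 12 counts stayed within 1.5 times. With crossed numbers 10 list genes were called in HCC1806 at day 10 and 13 at day 20, and 0 members. At these depths 3 counts limit any level to 0.0458 to 0.139 CPM.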
